A study of Mus musculus with 2 samples.

Results

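The 10 genes described here encode the transcriptional co-activators YAP (Yap1) and TAZ (Wwtr1), the DNA-binding partners through which they act (Tead1, Tead2, Tead3 and Tead4) and 4 genes widely used as readouts of their activity (Amotl2, Ankrd1, Axl and Myof). They were taken by name, as every probe set with a single gene symbol that is one of these 10, which gave 18 probe sets of the 34958 with a single symbol and 10 genes of 18193. Their RNA was measured on 2 one-colour Affymetrix arrays, 1 from old and 1 from young C57BL/6J mice. In both groups the left lung lobe had been resected (pneumonectomy), the right lobes were taken, and vascular cells were obtained from them by flow sorting. The labels give age only as old or young, and the sources used here do not state the sorting markers, the interval after surgery or how many mice gave RNA to an array. No array of unoperated mice was analysed here, so the comparison is between the 2 age labels after surgery and not with an uninjured lung. Markers of other cell types and tissues also differ between the arrays, as given below, and cannot be told apart from age.

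YAP and TAZ have no DNA-binding domain of their own and switch on genes by binding Tead proteins that sit on the DNA. The kinases of the Hippo pathway phosphorylate YAP and TAZ, which keeps them out of the nucleus or marks them for degradation, so that their activity is set mainly after translation and is not read directly from their RNA. In endothelium YAP and TAZ are known for roles in vessel sprouting, junction remodelling and the response to blood flow.

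With 1 array per group there is no replicate check, no statistical test was possible, and no p-value is given. All log2 ratios are old minus young. Values are MAS5 signal units after scaling of both arrays to a median log2 ratio of 0. Signals under a floor of 73.7 units, the median of the brighter array, were treated as having no order. A ratio against the floor is therefore a lower bound and is written as "at least". Each gene is represented by its brightest probe set, and a ratio of 2-fold or more is called higher. Probe sets of 1 gene differed from each other with an SD of 0.42 in log2 ratio (4514 genes with several), a measure of the probes and not of the mice. In a sorted bulk sample, fewer cells of a type and less RNA per cell cannot be told apart.

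The co-activators, Tead1, Tead2, Amotl2 and Ankrd1 were within 2-fold on the scale used here. The other Tead genes differed in opposite directions, and so did the other target genes. Of the 10 genes, 2 were higher in the old sample (Axl and Tead3) and 2 in the young sample (Myof and Tead4). Over all 12105 genes above the floor on at least 1 array, 16% were higher in the old sample and 11.3% in the young. The member counts of 2 of 10 on each side are near these shares. The median log2 ratio of the 10 genes was 0.11, against 0.03 over all measured genes, and ran from -0.38 to 0.26 over the alternative ways of processing.

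**Figure D1:**
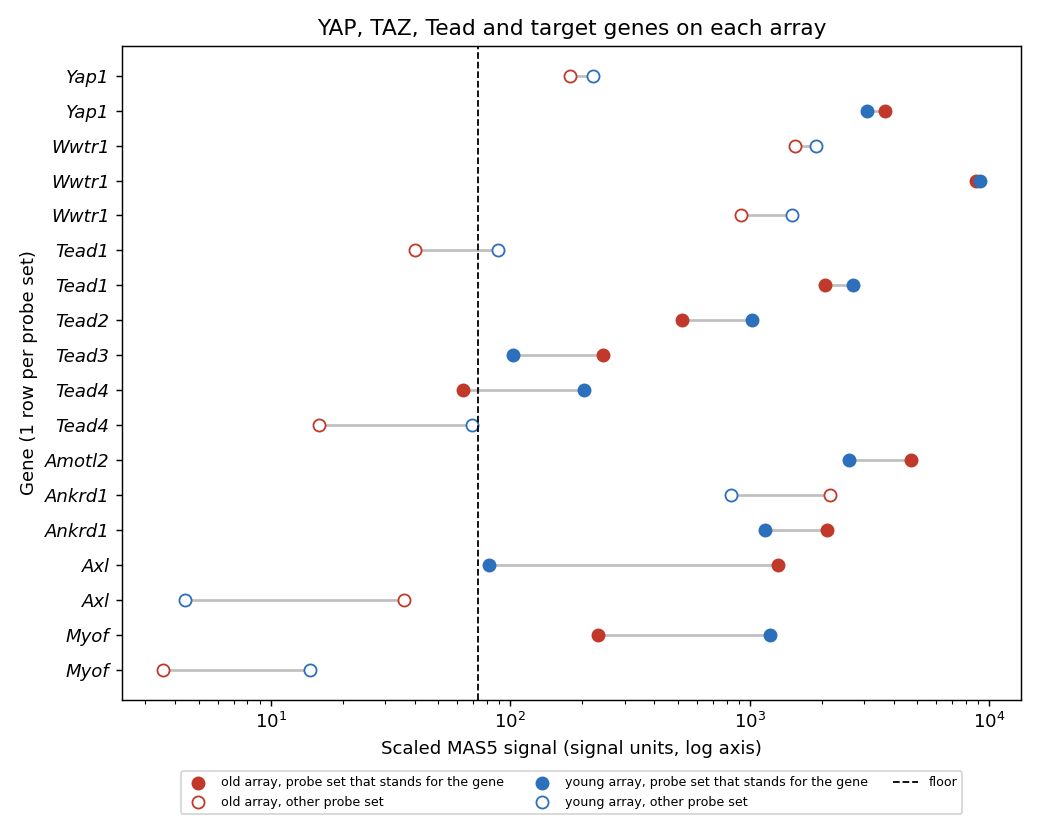
Scaled MAS5 signal (log axis) of the 18 probe sets, 1 row each, in the old sample (red) and the young sample (blue); filled points are the probe set that stands for the gene, open points its other probe sets, and the dashed line is the floor of 73.7. Points of Yap1 and Wwtr1 lie close together in each row, while those of Axl (1306 and 81.8) and Myof (233 and 1216) lie far apart in opposite order.

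The co-activator genes were well above the floor on both arrays and within 2-fold. Yap1 had a signal of 3682 in the old sample and 3073 in the young sample, a log2 ratio of 0.26. Its dimmer probe set had 177 and 222, a log2 ratio of -0.32. The 2 probe sets of Yap1 thus had opposite signs, and no direction can be given for this gene. Wwtr1 had a signal of 8815 in the old sample and 9120 in the young sample, a log2 ratio of -0.05. Its other 2 probe sets gave 1543 against 1888 (-0.29) and 921 against 1507 (-0.71). All 3 Wwtr1 probe sets were on the young side, and the largest difference was 1.64-fold.

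The Tead genes, whose proteins share the DNA-binding TEA domain, did not share a direction. Tead1 had a signal of 2056 in the old sample and 2691 in the young sample, a log2 ratio of -0.39, and a dimmer probe set was above the floor in the young sample only (88.8). Tead2 had 522 in the old sample and 1018 in the young sample, a 1.95-fold difference just short of 2-fold. On the values as deposited its log2 ratio was -1.09 and past 2-fold. Both Tead1 and Tead2 thus had ratios on the young side, short of 2-fold on the scale used here. That of Tead1 was smaller in size than the probe-set SD of 0.42. Tead3 had 245 in the old sample and 102 in the young sample and was 2.39-fold higher in the old. Tead4 had 204 in the young sample and 63.8, under the floor, in the old, so the difference was at least 2.77-fold toward the young. The second Tead4 probe set was under the floor on both arrays (15.9 in the old sample and 69.1 in the young). With the mean over both probe sets the Tead4 log2 ratio was a bound of -0.69, short of 2-fold. Tead1, Tead2 and Tead4 were thus on the young side and Tead3 alone on the old side. No Tead3 or Tead4 signal was over 3.32 times the floor, and neither gene was measured with the higher floor.

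Of the target genes, Amotl2 and Ankrd1 were on the old side without reaching 2-fold, Axl was far higher in the old sample and Myof in the young. Amotl2 encodes an angiomotin-family scaffold of cell junctions that binds YAP. It had a signal of 4694 in the old sample and 2592 in the young sample, a 1.81-fold difference from its only probe set. Ankrd1 encodes an ankyrin repeat protein also abundant in heart muscle. It had 2093 in the old sample and 1159 in the young sample, a 1.81-fold difference. Its second probe set had 2165 and 833, a 2.60-fold difference. Both Ankrd1 probe sets were on the old side, and which of them stands for the gene decides whether it passes 2-fold.

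Axl encodes a receptor tyrosine kinase for the ligand Gas6. It had a signal of 1306 in the old sample and 81.8 in the young sample, a 16.0-fold difference. The young signal lay at 1.11 times the floor, so this fold is close to a lower bound. The log2 ratio was a bound of 1.42 with the higher floor and of 1.55 with the mean over both probe sets, past 2-fold in each. Its second probe set, of the kind that can match several transcripts, was under the floor on both arrays (35.9 and 4.37). Of all measured genes, 2.43% had an absolute log2 ratio as large as that of Axl. Myof encodes myoferlin, a membrane protein of the ferlin family that takes part in membrane fusion and repair. It had 233 in the old sample and 1216 in the young sample, a 5.21-fold difference (log2 ratio -2.38), and 8.15% of measured genes had an absolute log2 ratio as large. This value comes from a shared-sequence probe set, and the other Myof probe set was under the floor on both arrays (3.55 and 14.5). Without shared-sequence probe sets no ratio could be given for Myof, and with the mean over both probe sets the log2 ratio was a bound of -0.85, short of 2-fold. With the higher floor it was a bound of -1.32.

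**Figure D2:**
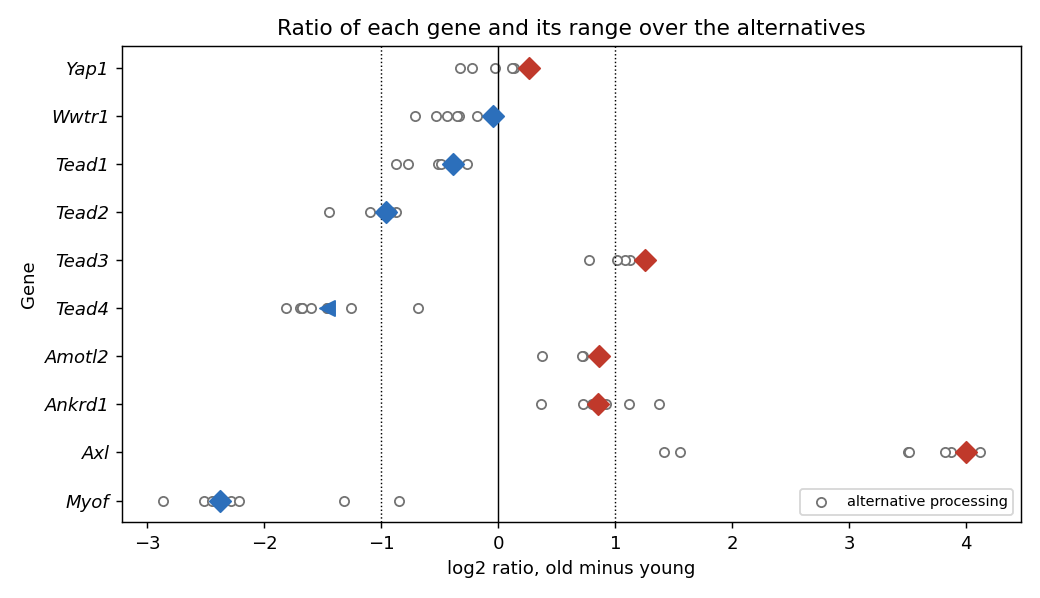
The log2 ratio, old minus young, of each of the 10 genes as reported (red toward old, blue toward young; a triangle is a bound against the floor) and under the alternative ways of processing (open circles), with dotted lines at 2-fold. Axl stays past 2-fold in all 10 alternatives, while Tead2, Tead3 and Ankrd1 cross the line in some and Yap1 changes sign. Tead4 and Myof fall short of the line only with the mean over probe sets, where the value is a bound against the floor. The open circles do not mark which alternatives are bounds.

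The promoters of the target genes show how their sequences differ in the letters that Tead proteins are known to recognise. RefSeq start sites (GRCm38.p6) were matched for 8 of the 10 genes, and Tead1 and Tead4 were not matched. In the windows from 250 bases before to 50 bases after the start, GGAATG was searched on both strands (its reverse complement is CATTCC). At least 1 window held it for 6 of the 8 genes, namely Yap1, Wwtr1, Tead3, Amotl2, Ankrd1 and Axl. Over all 32851 promoter windows of the same length 14.7% held it, and of 27025 genes 16.6% had it in at least 1 window. Of the further YAP/TAZ signature genes given below, 4 of 11 matched genes had it (36.4%). Among the Hippo kinase cascade genes, also given below, 4 of 14 had it (28.6%). Tead2 and Myof did not have these letters in this window. The AP-1 letters TGANTCA, which are their own reverse complement, were in none of the 11 windows of these 8 genes and in 7.81% of all windows. The 4 target gene windows are shown because these genes are the readouts of Tead activity, in lower case, 5′ to 3′ on the strand of the gene, with each match in capitals. They lie at chr19:36119795-36120094 (Ankrd1, minus strand), chr9:102717554-102717853 (Amotl2, plus strand), chr7:25788684-25788983 (Axl, minus strand) and chr19:38043528-38043827 (Myof, minus strand).
Ankrd1: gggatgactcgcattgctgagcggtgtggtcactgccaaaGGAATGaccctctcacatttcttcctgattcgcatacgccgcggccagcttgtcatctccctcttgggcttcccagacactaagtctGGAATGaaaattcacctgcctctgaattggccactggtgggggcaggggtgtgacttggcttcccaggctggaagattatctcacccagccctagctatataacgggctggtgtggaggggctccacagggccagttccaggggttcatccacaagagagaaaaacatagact
Amotl2: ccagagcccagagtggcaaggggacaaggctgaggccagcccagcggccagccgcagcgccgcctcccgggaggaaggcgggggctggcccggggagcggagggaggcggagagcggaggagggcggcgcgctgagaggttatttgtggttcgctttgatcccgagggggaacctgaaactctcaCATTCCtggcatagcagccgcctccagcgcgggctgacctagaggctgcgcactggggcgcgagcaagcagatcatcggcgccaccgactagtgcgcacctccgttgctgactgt
Axl: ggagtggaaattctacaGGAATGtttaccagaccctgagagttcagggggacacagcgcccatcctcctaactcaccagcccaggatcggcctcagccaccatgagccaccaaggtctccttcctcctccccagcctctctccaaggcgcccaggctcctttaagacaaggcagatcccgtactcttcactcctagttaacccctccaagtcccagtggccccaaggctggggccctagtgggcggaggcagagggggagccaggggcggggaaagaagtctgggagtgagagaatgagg
Myof: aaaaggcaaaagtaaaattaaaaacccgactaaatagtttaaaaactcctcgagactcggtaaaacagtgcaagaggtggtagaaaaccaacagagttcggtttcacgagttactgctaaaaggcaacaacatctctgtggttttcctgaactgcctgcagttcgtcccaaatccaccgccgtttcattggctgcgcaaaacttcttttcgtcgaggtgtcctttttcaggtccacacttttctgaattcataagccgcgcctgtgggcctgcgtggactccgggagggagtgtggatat

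The Ankrd1 window has 2 matches, which begin 210 and 123 bases before the start. That of Amotl2 has 1 match at 65 bases and that of Axl has 1 at 233 bases before the start. Matches were also present in windows of Yap1, Wwtr1 and Tead3. A match is a description of letters, and binding was not measured.

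Upstream of YAP and TAZ, the genes of the Hippo kinase cascade were mostly within 2-fold. Of 17 listed genes 16 were matched and measured, and 14 of them did not pass 2-fold. Among these, Wwc1 was under the floor in the young sample and has only a bound (1.49-fold), which cannot place it within 2-fold. Its other measured probe set had a log2 bound of 1.33, and with the lower floor its log2 ratio was a bound of 2.43, both past 2-fold toward the old sample. The count was 1 higher in the old sample and 1 in the young sample, 6.25% on each side, against 16% and 11.3% of all measured genes. The kinase gene Lats1, whose product phosphorylates YAP and TAZ, had signals of 951 in the old sample and 947 in the young sample. Lats2, its paralog, had 3254 and 2415, a log2 ratio of 0.43, and its measured probe sets ran from 0.13 to 0.75. Stk4, which encodes the upstream kinase MST1, had 1735 and 883, and its 3 probe sets ran from -0.23 to 0.97 in log2 ratio. Nf2, which encodes the scaffold merlin, had 1280 and 1343. Its 4 probe sets ran from -0.70 to -0.07 in log2 ratio, all on the young side. The genes past 2-fold were Frmd6 and Fat4, on opposite sides. Frmd6, a FERM domain gene, had 460 in the old sample and 3849 in the young sample, an 8.37-fold difference. Fat4, an atypical cadherin gene, had 1701 and 402, a 4.23-fold difference toward the old sample, and both of its probe sets were on that side. Dchs1, which encodes the cadherin that binds Fat4, had 796 and 492, within 2-fold.

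Genes listed as partners or repressors of YAP and Tead were found on both sides. Of 9 measured partners and repressors, 3 were higher in the old sample and 2 in the young, where 16% and 11.3% of all measured genes were. The count in the old sample was 1 with the higher floor, the mean over probe sets and the dimmest measured probe set. Vgll3, a Tead cofactor gene, had at least 12.2 times the signal in the old sample (901 against 27.7, under the floor). Amot, the angiomotin gene, had 1834 and 647, a 2.83-fold difference, although its other measured probe set had a log2 ratio of 0.18. For Runx1, a transcription factor gene, the bound was 2.06-fold toward the old sample. Ajuba, a LIM-domain gene whose product restrains Lats kinases, was 3.31-fold higher in the young sample (1154 against 3820). Ptpn14, a phosphatase gene whose product binds YAP, was 2.37-fold higher in the young sample (1184 against 2811). Vgll4, a Tead repressor gene, had 1482 and 1046, within 2-fold. Vgll3 did not pass 2-fold with the higher floor (a log2 bound of 0.88), Amot with the mean over probe sets (0.48) and Runx1 with the dimmest measured probe set (0.42).

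The wider target genes went both ways, as the 4 targets above did. Of the 18 further genes of a published YAP/TAZ signature of which Amotl2, Ankrd1, Axl and Myof are also part, 16 were measured, with 5 higher in the old sample, 3 in the young and 8 not past 2-fold, of which Foxf2 has only a bound. The shares of all measured genes were 16% and 11.3%, and with the higher floor the count in the old sample was 3. The median log2 ratio of these genes was 0.23 and had no fixed sign over the alternatives (-0.27 to 0.75). Among the genes on the old side, Nuak2, an AMPK-related kinase gene, had 4981 against 91.1, a 54.7-fold difference with a young signal near the floor. Ccdc80, a secreted matrix protein gene, had 10100 against 415, a 24.3-fold difference. The bound for the tissue factor gene F3 was 6.97-fold, and the binding protein gene Igfbp3 was 5.74-fold higher. Ccn2, the connective tissue growth factor gene, had 10714 against 3118, a 3.44-fold difference from its only probe set. Ccn1, the other matricellular gene commonly read with it, had 2958 against 1885, within 2-fold, and its 4 probe sets ran from 0.07 to 1.14 in log2 ratio. On the young side were Rbms3, an RNA-binding protein gene (787 against 3488, 4.43-fold), the ligand gene Tgfb2 (327 against 1007, 3.08-fold) and Ptpn14. All 4 probe sets of Rbms3 and of Tgfb2 were past 2-fold on the young side. The probe sets that stand for Fjx1 and Nt5e were under the floor on both arrays, and 1 of the 3 Nt5e probe sets had a log2 ratio of 0.75. With the higher floor F3 and Igfbp3 had log2 bounds of 0.07 and 0.44 and were not past 2-fold.

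Of 8 further genes that YAP and TAZ share with other pathways, 4 were higher in the young sample and 1 in the old, against 11.3% and 16% of all measured genes. Their median log2 ratio was -0.81 and ran from -1.29 to -0.41 over the alternatives. The cell division gene Birc5 was 5.81-fold, the Tie2 ligand gene Angpt2 4.64-fold, the endothelin gene Edn1 3.69-fold and the secreted glycoprotein gene Fstl1 2.30-fold higher in the young sample. Inhba, an activin subunit gene, was 4.13-fold higher in the old sample. Its young signal (98.0) was near the floor, and its other probe set was under the floor on both arrays. With the higher floor and with the mean over probe sets, Inhba was not called. With the higher floor Edn1 had a log2 bound of -0.32, and the dimmer Fstl1 probe set gave -0.83, both short of 2-fold.

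**Figure D3:**
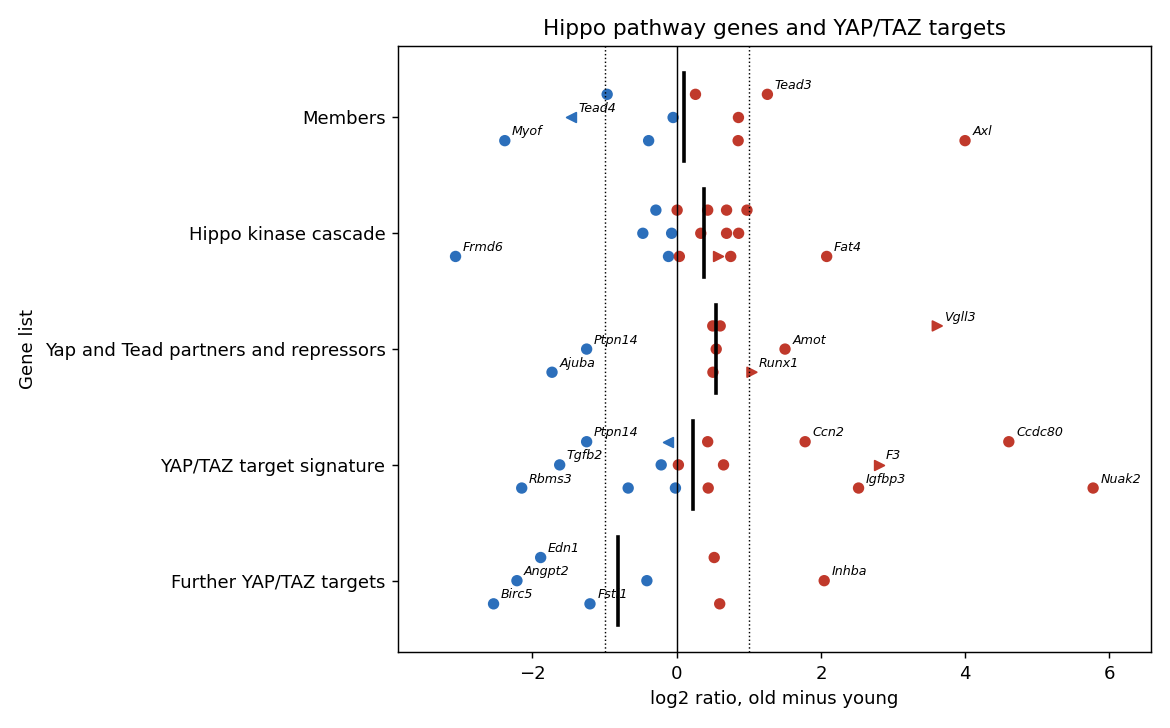
Log2 ratio, old minus young, of each measured gene in the 10 members and in the 4 pathway lists; triangles are bounds against the floor, black bars are list medians, dotted lines mark 2-fold, and genes past it are named. The Hippo kinase cascade clusters within 2-fold apart from Frmd6 and Fat4, while the target lists spread to both sides, from Birc5 (-2.54) to Nuak2 (5.77).

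Markers of other cell types also differed between the arrays, and several of the genes above are known from those cells. Pan-endothelial markers were above the floor on both arrays for 10 of 10 genes (summed signal 114860 in the old sample and 70864 in the young sample), and 4 of them were higher in the old sample (Robo4, Tek, Esam and Kdr) and 1 in the young (Emcn). Their log2 ratios ran from -1.12 (Emcn) to 3.19 (Robo4), with -0.04 for Pecam1 and 0.33 for Cdh5. The labelled tissue is lung, and of its capillary markers Car4 and Tbx3 were under the floor on both arrays, with 1 of 8 measured markers higher in the old sample and 2 in the young. Their median log2 ratio was -0.48, while the summed signal (41870 in the old sample against 23229) was in the old sample mostly that of Gpihbp1 (32563 against 911). Macrophage markers, among whose cells Axl is known, were higher in the old sample for 7 of 8 genes, with a summed signal of 27999 against 2692. The 5 macrophage markers Adgre1, C1qa, C1qb, C1qc and Lyz2 were under the floor in the young sample. Cardiomyocyte markers, whose cells are known for abundant Ankrd1, were higher in the old sample for 6 of 7 genes, with a summed signal of 16744 against 133, and all 7 were under the floor in the young sample.

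Fibroblast markers, from cells known to express Axl, Ccdc80 and Igfbp3, were higher in the old sample for all 6 measured genes. The summed signal over the 8 genes was 22752 against 294, and 7 of 8 were under the floor in the young sample. The probe sets that stand for Pdgfra (32.5 and 48.0) and Tcf21 (41.7 and 40.2) were under the floor on both arrays. Each had 1 other measured probe set, not past 2-fold (log2 ratios of 0.29 and 0.35). Mesothelial markers were higher for 6 of 6 (12305 against 139), and pericyte and smooth muscle markers for 6 of 8 (23662 against 426). The old sample also had higher signal for 6 of 6 pan-leukocyte markers (11372 against 173), 7 of 7 hepatocyte markers (14856 against 113) and 7 of 8 liver sinusoidal endothelial markers (181274 against 12685). Of 5 measured alveolar epithelial markers, 2 were higher by 2-fold or more in the old sample and 1 in the young (1011 against 509), with Sftpc, Sftpa1 and Aqp5 under the floor on both. Of 7 lymphatic endothelial markers, 5 had higher signal in the young sample, with a summed signal of 35086 in the old sample and 64662 in the young. The old sum was mostly that of Flt4 (18035 against 10262) and Lyve1 (14902 against 16120), both within 2-fold. Prox1 and Nts were under the floor in the old sample, and Mmrn1 (74.6 against 10039) and Reln (107 against 4023) were close to it there. Among the markers high in the old sample were Alb (8900 against 20.5) of hepatocytes, Mrc1 (27542 against 42.0) and Clec4g (41144 against 792) of liver sinusoidal endothelium, and Actc1 (7120 against 46.4) of heart muscle. The label of both samples is mature lung, and these values do not match the tissue label of the old sample. In the young sample the lymphatic markers Nts (10414) and Prox1 (6885) were high. There 3 of 10 lung capillary markers (Car4, Tbx3 and Scn7a) were under the floor. Tmem100 (80.3), Aplnr (116) and Foxf1 (152) were near it, Apln had 714 and Gpihbp1 911, and Ednrb (11300) and Plvap (9905) were high. In the old sample 4 of these 10 markers (Car4, Tbx3, Tmem100 and Aplnr) were under the floor, and Scn7a (77.0) and Foxf1 (101) were near it. Doubt thus remains about what each old minus young ratio compares. The marker values of both samples move with the age label, as do Axl and Myof, and their part in the results was not tested.

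**Figure D4:**
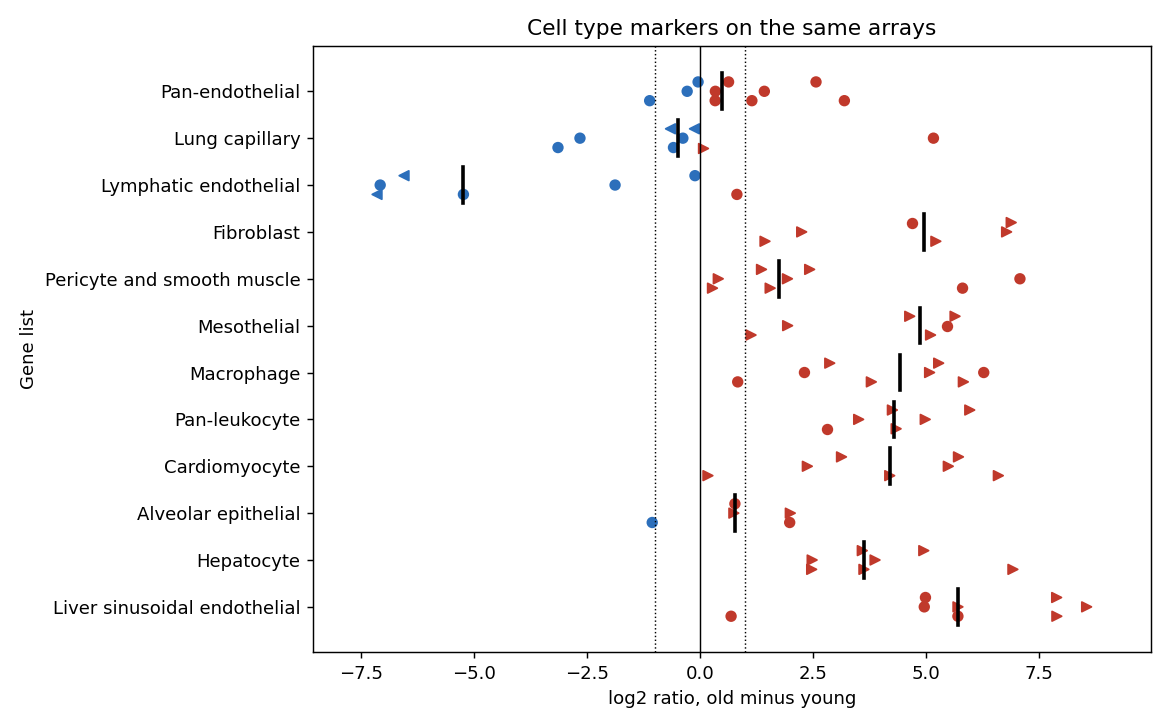
Log2 ratio, old minus young, of each measured marker gene in 12 cell type lists; triangles are bounds against the floor, black bars are list medians and dotted lines mark 2-fold. Fibroblast, mesothelial, macrophage, leukocyte, cardiomyocyte and hepatocyte markers lie on the old side, lymphatic endothelial markers mostly on the young side, and pan-endothelial markers around a median of 0.48.

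When the arrays were instead scaled to a median log2 ratio of 0 over the pan-endothelial markers, 33.9% of all calls were on the old side, against 58.6% with the scaling used here. Tead2 then passed 2-fold toward the young sample (log2 ratio -1.45), Tead3 did not reach it (0.77), and Axl (3.51), Myof (-2.87) and Tead4 (a bound of -1.82) stayed past it. Yap1 had -0.22 and Wwtr1 -0.53 on that scale, within 2-fold.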

How the data were processed

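Per the labels' protocols, RNA was extracted from flow-sorted lung vascular cells, and biotin-labelled cRNA was made from oligo-dT primed cDNA. The deposited values are linear intensity units, 1 value for each probe set and array. Per the submitters' processing notes, GCOS 1.4 and MAS5 were used. Each array's deposited intensity values have a trimmed mean (2% off either end) of 500.003. No genome build is named for them. Probe-level data and detection calls were not used here. Control probe sets (64 of 45101) were left out.

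Both arrays were scaled (factors 1.05 for old and 0.956 for young) to bring the median log2 ratio to 0 among probe sets above the median of each array (-0.13 as deposited). The floor was the higher of both medians after scaling. Genes were named by the platform annotation dated 2016, and the probe set brightest on average (log2 scale) stood for a gene. Calls used a 2-fold size rule. Precision is limited by the number of arrays, 1 per group. As a sign of RNA quality, the 3' to 5' signal ratios were 1.32 (old) and 1.20 (young) for Actb, and for Gapdh 0.718 (old) and 0.806 (young).

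The members, the 4 pathway lists and the 12 marker lists were chosen with earlier results of these data known. Named were all 10 members, then Ccn1, Ccn2, Lats1, Lats2, Stk4, Nf2 and Vgll4 whatever their values (Stk3, also in this rule, was not matched), and up to 5 genes of each list and direction past 2-fold. Also named were marker genes at or under the floor. Dchs1, Fjx1, Nt5e, Foxf2, Wwc1 and the endothelial, liver and heart markers named with values were added after their values were seen. Of the lists, genes such as Stk3, Runx2, Areg, Serpina1a and Ccl21a had no probe set with a single symbol and were not analysed here.

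Alternatives were the values as deposited, quantile normalization, loess (span 0.4), a lower floor (25th percentile) and a higher floor (75th percentile), an offset of 0.5 times the floor in place of a floor, the mean over probe sets, leaving out shared-sequence probe sets (_s_at and _x_at), and the dimmest measured probe set. Scaling on pan-endothelial markers was added after seeing the data. The software was Python 3.11.15 with pandas 2.3.3, numpy 2.4.6, statsmodels 0.14.6, scipy 1.17.1 and, for figures, matplotlib 3.10.9.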

Additional observations from a re-analysis of the deposited data

How the results depend on the processing

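No paired analysis was possible because each group is 1 array, and for the same reason no replicate could be left out. The count of member genes higher on the old array was 1 in place of 2 with the higher floor and with scaling on pan-endothelial markers. The count on the young array was 1 without shared-sequence probe sets or with the higher floor, and 0 with the mean over probe sets. The median of the members was -0.38 with pan-endothelial scaling, where that of all genes was -0.42. Its distance from the median of all genes was 0.05 there and 0.07 in the values reported. Hippo kinase cascade genes on the old side numbered 2 in place of 1 with loess, the lower floor, the offset and the dimmest measured probe set. Partners and repressors on the old side numbered 1 in place of 3 with the higher floor, the mean over probe sets and the dimmest measured probe set. Signature genes on the old side numbered 3 in place of 5 with the higher floor, and further targets on the old side 0 in place of 1 with the higher floor and with the mean over probe sets. Over all genes, 1937 calls were on the old side and 1366 on the young side, against 986 and 607 with the higher floor, 2964 on the old with the lower floor and 2740 on the young with pan-endothelial scaling. The cause of these shifts was not tested beyond the settings themselves. Of 97 member ratios under the 10 alternatives, 90 stayed on the same side of 2-fold and 79 moved by no more than the probe-set SD. Tead3 and Tead4 with the higher floor, and Myof without shared-sequence probe sets, had no ratio. These losses of a called gene are not counted among the 97. Depth cannot be given for arrays, and signals of Tead3, Tead4 and, on the young array, Axl lie close to the floor.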
